A study of Mus musculus with 12 samples.

Results

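The genes described here are 34 enzymes of amino acid breakdown, urea formation and gluconeogenesis that hepatocytes next to the portal vein are known for. They were chosen by gene name, each name being matched to the names printed in the array files. All 34 were on the array, and they are 34 of the 26505 genes measured above background. Each was well above background on 12 of 12 arrays.

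RNA came from male 129/SV/B6 mice that had been given diethylnitrosamine (DEN), a liver carcinogen, at 50 mg/kg when 2 weeks old. Poly(IC) followed 8 months later, and tissue was taken 1 week after it, 2 months after irradiation and a bone marrow transplant. These treatments were shared by all 4 groups of 3 arrays: wild-type liver (Mxcre-, non-cancerous), survivin-deleted liver (Mxcre+, non-cancerous), wild-type hepatocellular carcinoma (HCC; Mxcre-) and survivin-deleted HCC (Mxcre+). Mx-Cre is a recombinase driven by an interferon-inducible promoter that poly(IC) switches on in hepatocytes and blood-forming cells, so the deletion is not limited to tumour cells. The transplant came before poly(IC), and deletion in the blood-forming cells of these mice was not tested. No group was free of DEN, poly(IC), irradiation or the transplant. The labels do not say whether the arrays of a group are separate animals, so the tests measure the spread between arrays, which may be technical.

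Blood enters the liver lobule at the portal vein and leaves at the central vein, and hepatocytes divide their work along that path. Periportal cells take up amino acids, strip off the nitrogen, make urea from it and turn the carbon into glucose. Cells around the central vein, where Wnt signalling is high, instead make glutamine with glutamine synthetase (Glul).

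Values are log2 signals relative to the 75th percentile of their array, so 0 is the level of that percentile and a step of 1 is a 2-fold difference. A gene with several probes is represented by the probe of highest mean signal. Some probes carry most of what follows. They are printed 5′ to 3′ in lower case, as the array files give them, with their places on the mm9 assembly. Each is 60 bases long and lies in the coding part of its transcript, and those of Tdo2, Otc, Hpd and Gnmt cover more than 60 bases of the genome because they cross an exon junction. The first 4 belong to genes whose signal was far lower on 1 HCC array, and the last 3 to genes whose signal was lower in wild-type HCC than in wild-type liver. Their places are chr5:120933105-120933164 for Sds, chr2:43459748-43459807 for Kynu, chr3:81767918-81770928 for Tdo2, chrX:9853843-9877490 for Otc, chr5:123622237-123624360 for Hpd, chr16:37621972-37622031 for Hgd and chr17:46862894-46863042 for Gnmt.
Sds: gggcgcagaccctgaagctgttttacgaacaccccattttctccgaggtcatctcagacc
Kynu: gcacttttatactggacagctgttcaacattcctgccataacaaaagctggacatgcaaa
Tdo2: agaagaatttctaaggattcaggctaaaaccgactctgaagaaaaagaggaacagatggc
Otc: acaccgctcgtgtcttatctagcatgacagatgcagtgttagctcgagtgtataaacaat
Hpd: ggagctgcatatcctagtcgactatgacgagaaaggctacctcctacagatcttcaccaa
Hgd: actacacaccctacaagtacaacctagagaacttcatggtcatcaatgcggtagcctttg
Gnmt: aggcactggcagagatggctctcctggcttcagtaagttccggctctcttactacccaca

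Some arrays stood apart before any comparison. The arrays lie on 2 slides: replicate 1 of each group on slide 1, and replicates 2 and 3 on slide 2, with 75th percentile signals of 1131 to 1766 on slide 1 and 3343 to 3906 on slide 2. The share of probes well above background was 49.0% for wild-type liver replicate 1 and 69.2% to 83.4% for the others. The deposited value table gives survivin-deleted liver replicate 1 and wild-type HCC replicate 1 the values of each other's scanner file (r = 0.998 and 1.00, against 0.963 and 0.965 with their own), and it is not known which assignment is right. Birc5, the survivin gene, was at 2.42 on the array labelled survivin-deleted liver replicate 1, against -0.10 and -1.07 on the other survivin-deleted liver arrays. It was at 2.85, 0.51 and 0.76 in wild-type liver, at 0.80, 0.82 and 1.76 in wild-type HCC, and at 0.06, 0.17 and -0.09 in survivin-deleted HCC. For each comparison the counts and the median are also given with these arrays exchanged. The hepatocyte list (20 of 20 genes measured, among them Alb and Apoa1) had a mean log2 level of 5.20 to 5.63 on all 12 arrays, so hepatocyte transcripts were high on every array.

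None of the 34 genes passed the test in any comparison (limma with slide as a block, Benjamini-Hochberg adjusted p under 0.05 over all genes). The share of all genes called was 0% in each of the 5 contrasts, so every difference below is a measured value that did not pass. The smallest adjusted p among the 34 genes was 0.58 for survivin deletion in HCC, 0.423 for deletion in liver, 0.752 for HCC against liver in the wild type, 0.904 for the same in survivin-deleted mice, and 0.913 for the difference between the deletion effects of the tissues. The array-by-array values show 1 array, survivin-deleted HCC replicate 2, that was the lowest for most of the genes.

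**Figure D1:**
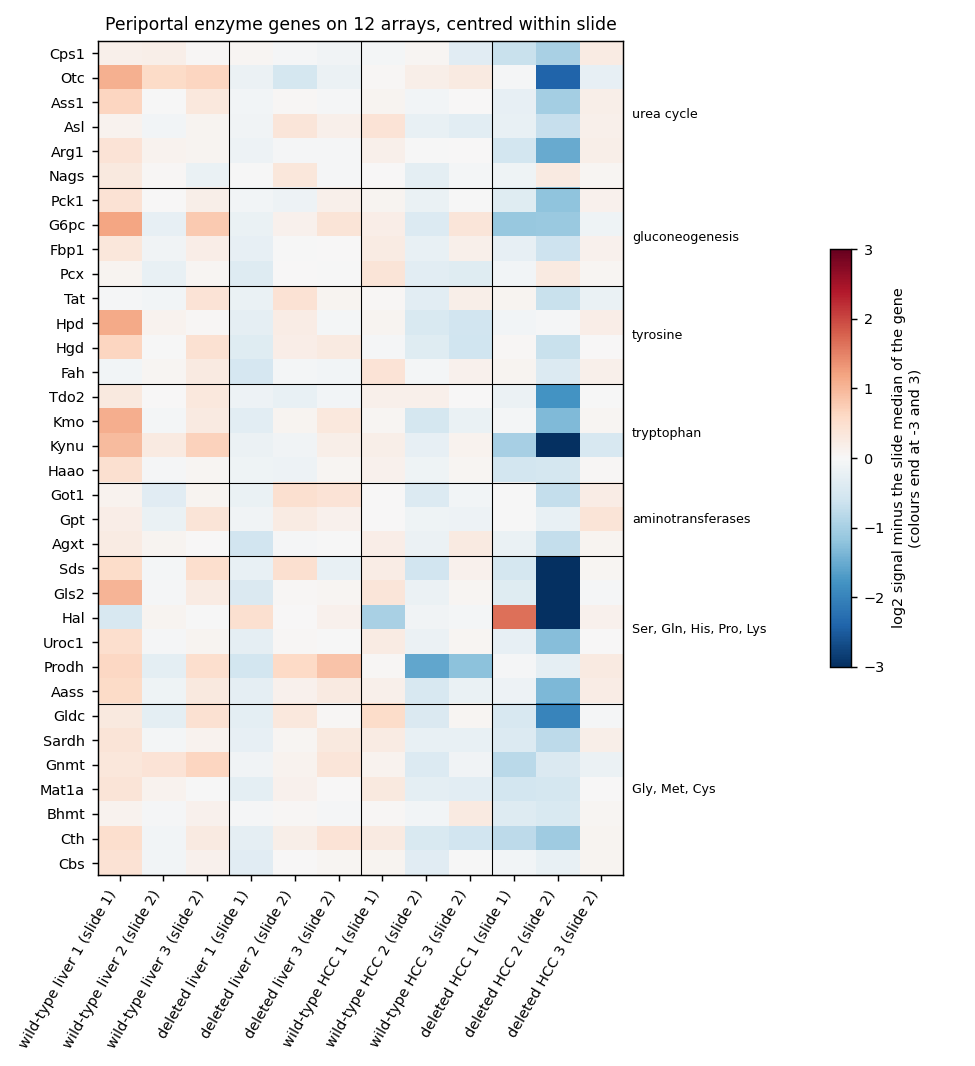
Log2 signal of the 34 genes (lines, grouped by role) on 12 arrays (columns, grouped by tissue and genotype), each minus the gene's median on the same slide; blue is below that median and red above. The column of survivin-deleted HCC replicate 2 is the lowest of 12 arrays for 27 genes in uncentred signal, and the array beside it, replicate 3, shows no such pattern.

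On survivin-deleted HCC replicate 2 the signal was the lowest of 12 arrays for 27 of 34 genes, where 13.0% of all genes were lowest on that array. It was more than 1 log2 unit below each of the other 11 arrays for 6 of them, Sds, Gls2, Kynu, Tdo2, Gldc and Otc, against 0.733% of all genes. No other array had any of the 34 genes that far below all the rest. Against the mean of the other 7 arrays of slide 2, 15 of 34 genes were lower by more than 1, against 4.72% of all genes, and the median difference was -0.79, against 0.03 over all genes. The median signal of the 34 genes was 3.33 on this array and 3.91 to 4.73 on the others.

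Serine dehydratase (Sds), which turns serine into pyruvate for glucose formation, had the widest gap. Its signal was 5.72, 4.14 and 4.72 in wild-type liver. In survivin-deleted liver it was 4.95, 4.68 and 3.99, and it was 5.39, 3.63 and 4.34 in wild-type HCC, and 4.65, -1.09 and 4.28 in survivin-deleted HCC. The value of -1.09 was 26.5-fold below the lowest of the other arrays, while the remaining survivin-deleted HCC arrays lay inside the range of wild-type HCC. The second Sds probe, dimmer throughout and above background on 11 arrays, was also lowest on that array.

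Glutaminase 2 (Gls2), the liver enzyme that releases ammonia from glutamine for urea formation, followed the same course. It was at 5.15, 4.08 and 4.36 in wild-type liver. In survivin-deleted liver it was at 3.70, 4.16 and 4.17, and it was at 4.49, 3.93 and 4.17 in wild-type HCC, and 3.78, -0.08 and 4.07 in survivin-deleted HCC. The low array was 13.7-fold below the next lowest, and the other 11 arrays ran from 3.70 to 5.15. Histidine ammonia-lyase (Hal), the first enzyme of histidine breakdown, was at 0.56 on that array and at 3.89 to 4.13 on the other arrays of slide 2. On slide 1 its main probe varied widely, from 1.42 in wild-type HCC to 4.05 in survivin-deleted HCC, so the groups overlap. Its second probe read -1.89 on the low array and 1.16 to 2.76 on the other 11.

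Kynureninase (Kynu), which cleaves kynurenine on the way from tryptophan to NAD, was at 4.06, 2.37 and 2.79 in wild-type liver and 2.95, 1.99 and 2.26 in survivin-deleted liver. In wild-type HCC it was at 3.28, 1.85 and 2.19, and in survivin-deleted HCC at 2.12, -1.17 and 1.60. Within each slide, survivin-deleted HCC held the lowest Kynu values, so on this probe the other arrays of the group were low too. On the second Kynu probe they were not all low: survivin-deleted HCC replicate 3 read 0.84, above 0.34 and 0.71 for wild-type HCC on the same slide. Tryptophan 2,3-dioxygenase (Tdo2), the first enzyme of that pathway, was at 4.58, 4.12 and 4.43 in wild-type liver and 4.15, 3.88 and 4.02 in survivin-deleted liver. It was at 4.45, 4.25 and 4.13 in wild-type HCC and at 4.13, 2.32 and 4.09 in survivin-deleted HCC. The other arrays of the last group matched the rest to within 1 log2 unit. Kmo, which hydroxylates kynurenine, was at 2.05 on the low array and 2.86 or more elsewhere, and Haao, a later step, at 4.05 against 4.44 or more.

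Ornithine transcarbamylase (Otc), which joins ornithine and carbamoyl phosphate to citrulline in the urea cycle, was at 3.58, 3.84 and 3.92 in wild-type liver and 2.35, 2.75 and 3.10 in survivin-deleted liver. In wild-type HCC it was at 2.54, 3.46 and 3.55, and in survivin-deleted HCC at 2.50, 0.88 and 3.04. On this probe the 3 wild-type liver arrays were above all others. On the second Otc probe wild-type liver read 2.39, 3.68 and 3.94, which overlapped each of the other groups. Glycine decarboxylase (Gldc), a subunit of the glycine cleavage system, was at 0.65 on the low array, against 2.20 or more on the other 11, a 2.92-fold gap to the nearest.

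The remaining steps of the urea cycle were lower on that array by smaller amounts. Arginase 1 (Arg1), which releases urea from arginine, was at 3.20 against a mean of 4.75 on the other slide 2 arrays. Argininosuccinate synthase (Ass1) was at 4.19 against 5.27, the entry enzyme Cps1 at 3.48 against 4.46, and argininosuccinate lyase (Asl) at 3.35 against 4.07. Nags, whose product N-acetylglutamate activates Cps1, was not lower, at 3.90 against 3.62. In gluconeogenesis, Pck1, which makes phosphoenolpyruvate, was at 3.96 against 5.18, glucose-6-phosphatase (G6pc) at 2.52 against 3.76, and fructose-1,6-bisphosphatase (Fbp1) at 4.24 against 4.89. Pyruvate carboxylase (Pcx) was at 4.18 against 3.78. The genes that were not below the other slide 2 arrays are thus Nags, Pcx and the tyrosine enzyme Hpd, at 5.35 against 5.31.

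Other cells and zones differed on the same array. Further genes of amino acid breakdown (51 of 53 measured) had a median difference of -0.62 from the other slide 2 arrays, and Amdhd1, Mccc2, Sdsl, Aspg and Hnmt were below every other array by more than 1. Of 12 other periportal markers, 4 were (Cyp2f2, Hsd17b13, Igf1 and Aldh1b1). Cyp2f2, a periportal cytochrome P450, read 0.99 there and 3.90 or more elsewhere. The pericentral list (19 of 20 measured) had a median difference of 1.10 the other way, with Glul at 3.71, the highest of 12 arrays. That slide 2 reference includes wild-type HCC replicates 2 and 3, where the mean level of the list was -0.37 and 0.12. As a list it was not highest on the low array. Its mean level there was 2.81, below 3.04 on survivin-deleted HCC replicate 1 and 2.96 on survivin-deleted liver replicate 1. The mean level of that list ran from 1.33 to 2.54 in wild-type liver, 1.92 to 2.96 in survivin-deleted liver, -0.37 to 2.15 in wild-type HCC and 1.71 to 3.04 in survivin-deleted HCC. General hepatocyte genes had a mean level of 5.32, inside the range of the other 11 arrays, and a median difference of -0.14. The T and NK cell list (17 of 19 measured) had a mean level of -0.35, against -2.68 to -1.38 in wild-type HCC and -2.24 to -0.76 in wild-type liver, and was higher only on survivin-deleted liver replicate 1, at -0.16. Cd3d, a T-cell receptor subunit, read -0.44, the highest of 12 arrays. The part of the pericentral and T-cell signals in the low enzyme signals was not tested. In whole tissue, fewer cells of a zone and less RNA per cell cannot be told apart.

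**Figure D2:**
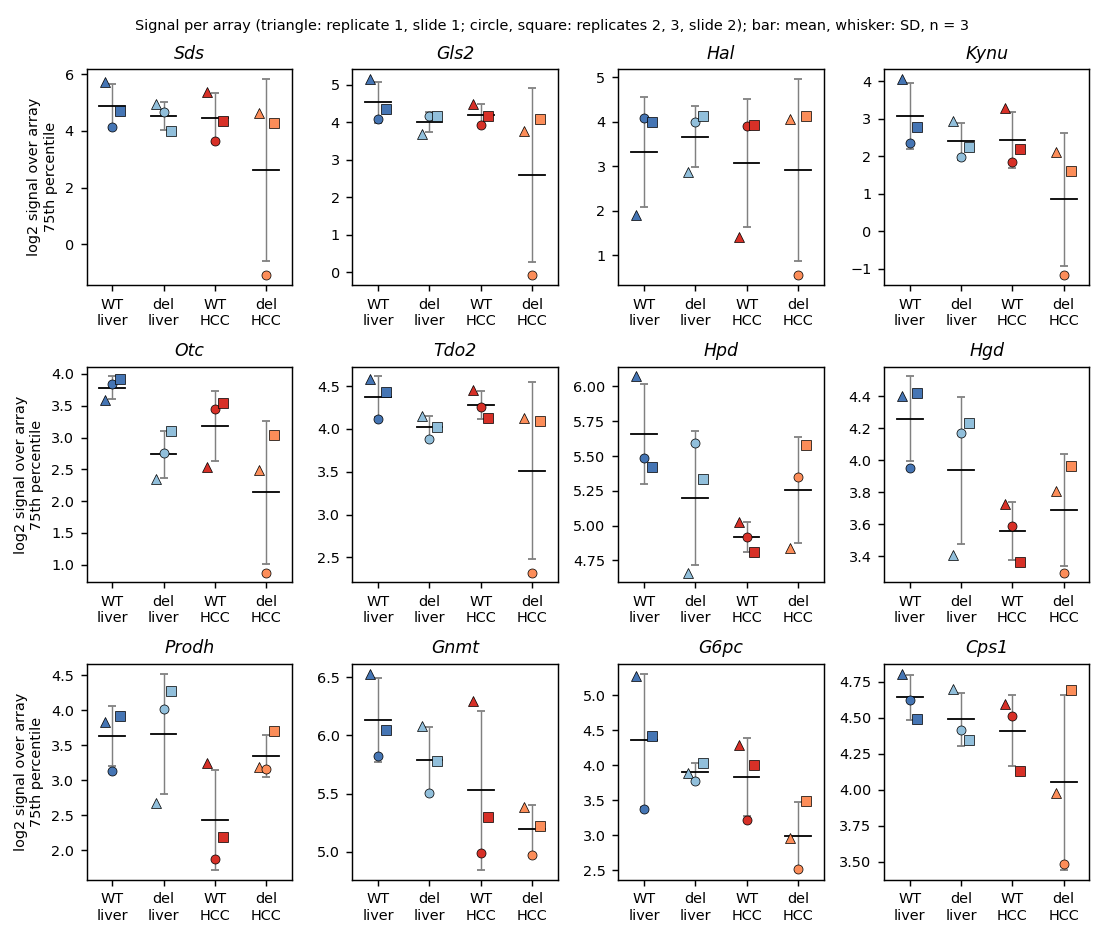
Log2 signal over the array's 75th percentile for 12 genes, in 4 groups of 3 arrays, with the mean and SD (n = 3) of each group. Sds at -1.09, Gls2 at -0.08 and Kynu at -1.17 on survivin-deleted HCC replicate 2 stand below all other arrays, and the 3 wild-type HCC arrays of Hgd stand below the 3 of wild-type liver.

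Survivin deletion in HCC was compared over all arrays. Of the 34 genes, 27 were lower in survivin-deleted than in wild-type HCC, where 52.6% of all genes were lower. The median change was -0.32, against -0.02 over all genes. Only Kynu had an unadjusted p under 0.05, where 4.44% of all genes did so and were lower and 3.44% higher. There were 0 genes whose groups did not overlap, against 2.70% of all genes lower and 2.76% higher. Kynu was lower by 1.59 (log2 change -1.59, SE 0.57, unadjusted p = 0.0189, limma adjusted p = 0.58).

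The size of this difference rested on 1 array. Without survivin-deleted HCC replicate 2 the median change was -0.09 and 21 of 34 genes were lower, while the median over all genes was -0.04. Sds went from -1.84 (SE 1.09) to -0.15, Gls2 from -1.61 (SE 0.85) to -0.30, Gldc from -0.89 (SE 0.46) to -0.33, Otc from -1.04 (SE 0.49) to -0.31 and Tdo2 from -0.76 (SE 0.38) to -0.20. Kynu went from -1.59 to -0.75 (unadjusted p = 0.0211 by limma) and G6pc from -0.85 to -0.69. Hal turned from -0.17 to 1.27 (unadjusted p = 0.0234 by limma), or to 0.79 with the arrays in doubt exchanged as well. On slide 1 its main probe read 1.42 in wild-type HCC, 1 of the arrays in doubt, and 4.05 in survivin-deleted HCC. The second Hal probe went the other way on these arrays, at 2.16 and 1.16. Without survivin-deleted HCC replicate 2 and with no exchange, Kynu and Hal were the 2 genes with an unadjusted p under 0.05, as were 6.1% of all genes. With replicate 3 left out instead, the median was -0.57 and 17 genes had an unadjusted p under 0.05, as did 9.98% of all genes, none passing adjustment. With the arrays in doubt exchanged the median was -0.15, 25 genes were lower and 3 had an unadjusted p under 0.05, against 9% of all genes in either direction. Of these 3, Kynu was lower, at -1.48, while Pcx and Prodh were higher, at 0.45 and 1.10. With that exchange and replicate 2 left out the median was 0.06. Without wild-type HCC replicate 3, 0 genes had an unadjusted p under 0.05 (4.41% of all genes). On slide 2 alone without survivin-deleted HCC replicate 2 the median was 0.22, so the direction turned.

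**Figure D3:**
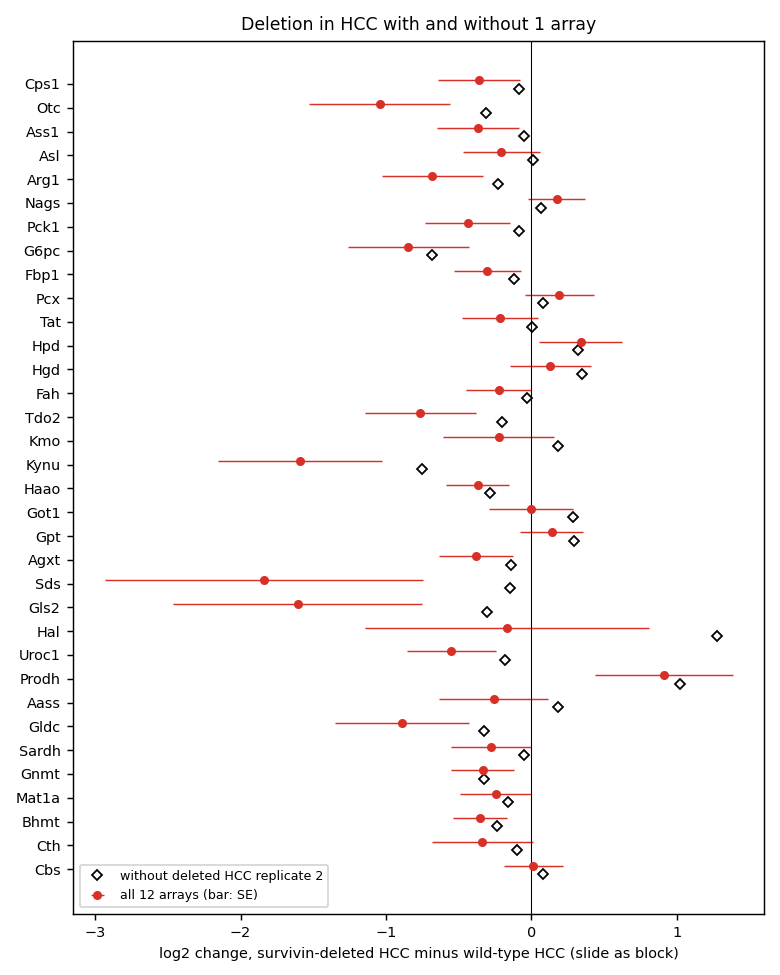
Log2 change of each gene, survivin-deleted minus wild-type HCC, from all 12 arrays (red, bar: SE) and without survivin-deleted HCC replicate 2 (open diamonds). The diamonds of Sds, Gls2, Kynu, Gldc, Otc and Tdo2 lie nearer 0, and those of Prodh and Hpd change little.

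A few genes were not lower in survivin-deleted HCC. Proline dehydrogenase (Prodh), the first step of proline breakdown, was at 3.24, 1.88 and 2.19 in wild-type HCC and at 3.18, 3.15 and 3.70 in survivin-deleted HCC. Its log2 change was 0.91 (SE 0.48, limma adjusted p = 0.663), and 1.02 without replicate 2. The groups overlapped through replicate 1 of wild-type HCC, 1 of the arrays in doubt, and with the exchange they did not overlap, as for 2.69% of all genes that were higher. Hpd, which turns hydroxyphenylpyruvate into homogentisate, was higher by 0.34 (SE 0.29). For the entry enzyme of the urea cycle, Cps1, the change was -0.36 with a 95% interval of -0.99 to 0.27. Cystathionine beta-synthase (Cbs), which takes homocysteine towards cysteine, was at 0.01 (95% interval -0.44 to 0.47).

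In non-cancerous liver, 28 of 34 genes were lower after survivin deletion, where 44.9% of all genes were. The median was -0.24, against 0.05 over all genes. No gene had an unadjusted p under 0.05 (3.46% of all genes did so and were lower, and 8.37% higher), and Otc alone had groups that did not overlap, lower in survivin-deleted liver as for 3.22% of all genes, while 6.31% were higher without overlap. Otc was lower by 1.05 on the log2 scale (log2 change -1.05, SE 0.49, limma adjusted p = 0.423), and an exact permutation test of 3 against 3 arrays gave two-sided p = 0.1, the smallest it can give. The other arrays set the spread in this fit: without survivin-deleted HCC replicate 2 the Otc change was the same with an unadjusted p of 0.000349 and an adjusted p of 0.404. The Otc probe further along the transcript read 3.68 and 3.94 on the slide 2 arrays of wild-type liver and 3.37 and 3.55 on those of survivin-deleted liver, a smaller gap than the main probe shows (3.84 and 3.92 against 2.75 and 3.10). Over all 3 arrays of each group that probe overlapped. The median over the 34 genes was 0.01 on slide 2 alone and -0.02 after quantile normalization, against 0.02 and 0.05 for all genes. With the arrays in doubt exchanged it was -0.10 with 24 genes lower, and without survivin-deleted liver replicate 1 it was -0.03 with 20 genes lower. With the exchange, Otc was lower without overlap, as were 3.06% of all genes, and Asl was higher without overlap, as were 6.11%. The albumin gene of the hepatocyte list was lower by 0.54 in the same comparison, and 17 of the 20 genes of that list were lower; the part of this in the enzyme values was not tested.

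In the wild type, HCC was compared with non-cancerous liver. Of the 34 genes, 32 were lower in HCC (44.6% of all genes), with a median of -0.24 against 0.04 over all genes. Hpd, Hgd, Prodh and Gnmt had an unadjusted p under 0.05, where 2.43% of all genes did so and were lower and 3.66% higher. Otc (on its main probe only), Hpd and Hgd had groups that did not overlap, against 2.39% of all genes lower and 4.67% higher. With the arrays in doubt exchanged, 33 of 34 genes were lower and the median was -0.35. Mat1a and Cth joined the first count, which made 6 genes, against 11.5% of all genes with an unadjusted p under 0.05 in either direction. Asl, Pcx and Prodh joined the second, which made 6 genes, against 3.42% of all genes. The count of 4 genes with an unadjusted p under 0.05 rested on single arrays. It was 0 without wild-type HCC replicate 2 (5.25% of all genes in either direction), where 25 of 34 genes were lower. It was 1 without wild-type HCC replicate 3 (3.58%), wild-type liver replicate 1 (2.79%) or wild-type liver replicate 3 (8.27%). It was 6 without survivin-deleted HCC replicate 2 (6.52%). This comparison does not use survivin-deleted HCC replicate 2 except through the shared spread.

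Hpd and Hgd are successive enzymes of tyrosine breakdown. Hpd was at 6.07, 5.49 and 5.42 in wild-type liver and at 5.02, 4.92 and 4.81 in wild-type HCC, and at 4.66, 5.60 and 5.33 and at 4.84, 5.35 and 5.58 in the liver and HCC of survivin-deleted mice. Every wild-type HCC array was below every wild-type liver array, while the survivin-deleted groups overlapped. The log2 change was -0.74 (SE 0.29, limma adjusted p = 0.752), a 1.67-fold lower signal, and -0.86 with the exchange. Homogentisate dioxygenase (Hgd), the next step, was at 4.40, 3.95 and 4.42 in wild-type liver and at 3.73, 3.58 and 3.36 in wild-type HCC. In survivin-deleted liver it was at 3.41, 4.17 and 4.23 and in survivin-deleted HCC at 3.81, 3.30 and 3.96. Its change was -0.70 (SE 0.28, limma adjusted p = 0.752) in the wild type, without overlap, and -0.25 in survivin-deleted mice, with overlap. The difference between these Hgd changes was 0.45 (SE 0.39, limma adjusted p = 0.913). On slide 2 alone the changes were closer, at -0.71 in the wild type and -0.57 in survivin-deleted mice. Tat, the first enzyme of the pathway, and Fah, the last, had changes of -0.14 and 0.08 in the wild type.

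Gnmt, which uses up S-adenosylmethionine by methylating glycine, was lower in HCC of both genotypes. It was at 6.53, 5.83 and 6.05 in wild-type liver and 6.30, 4.99 and 5.30 in wild-type HCC, and at 6.08, 5.51 and 5.78 in survivin-deleted liver and 5.39, 4.97 and 5.22 in survivin-deleted HCC. HCC was lower than liver of its genotype within each slide. The log2 changes were -0.61 (SE 0.22, unadjusted p = 0.0186 by limma) and -0.60 (SE 0.22, unadjusted p = 0.0202 by limma), and the difference between them was 0.01 (SE 0.31). After quantile normalization they were -0.40 and -0.70, with a difference of -0.30, and on slide 2 alone -0.79 and -0.55. Cystathionine gamma-lyase (Cth), which makes cysteine, was at -0.50 and -0.70, and Mat1a, the enzyme that makes S-adenosylmethionine, at -0.26 and -0.31. Prodh was at 3.82, 3.13 and 3.92 in wild-type liver, so its wild-type HCC values on slide 2, at 1.88 and 2.19, were the lowest of 12 arrays, and its change was -1.19 (SE 0.48, limma adjusted p = 0.752).

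**Figure D4:**
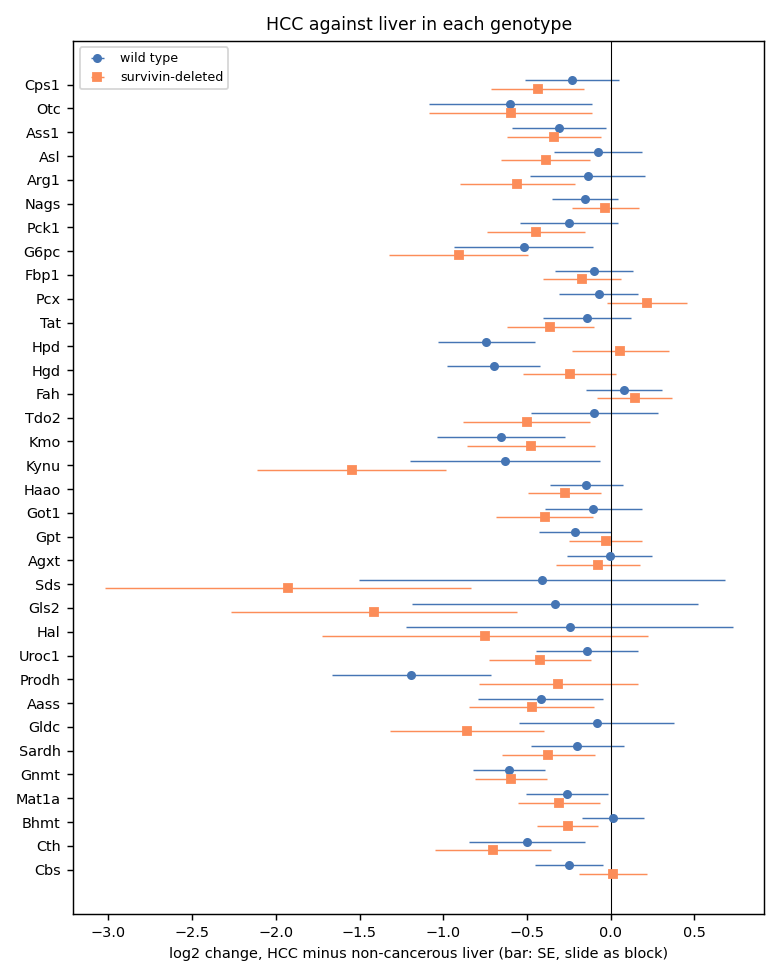
Log2 change of each gene, HCC minus non-cancerous liver, in wild-type (circles) and survivin-deleted mice (squares), with SE bars from the slide-blocked fit. Gnmt lies at -0.61 and -0.60, Hpd at -0.74 and 0.06, and the squares of Sds, Gls2 and Kynu are pulled left by survivin-deleted HCC replicate 2.

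In survivin-deleted mice, 30 of 34 genes were lower in HCC than in liver (55.8% of all genes), with a median of -0.39 against -0.04 over all genes. Kynu and Gnmt had an unadjusted p under 0.05, against 2.63% of all genes lower and 1.75% higher. G6pc and Gnmt had groups that did not overlap, against 2.26% of all genes lower and 2.23% higher. Without survivin-deleted HCC replicate 2 the median was -0.11 and 24 genes were lower. With the arrays in doubt exchanged it was -0.50, with 34 genes lower, and 8 genes had an unadjusted p under 0.05, against 6.85% of all genes in either direction. Gls2 then joined G6pc and Gnmt among the genes whose groups did not overlap, against 3.06% of all genes lower. Without survivin-deleted liver replicate 1 the median was -0.60 and 8 genes had an unadjusted p under 0.05 (6.55% of all genes). Without survivin-deleted HCC replicate 3 these were -0.66 and 18 genes (8.28%). Without survivin-deleted liver replicate 3 the count was 0 (2.66%), and without survivin-deleted HCC replicate 1 it was 1 (4.32%). G6pc, which releases free glucose from glucose-6-phosphate, was at 3.89, 3.77 and 4.03 in survivin-deleted liver and 2.96, 2.52 and 3.49 in survivin-deleted HCC. In the wild type it was at 5.28, 3.38 and 4.41 in liver and 4.29, 3.21 and 4.0 in HCC. Its changes were -0.91 (SE 0.42) and -0.52 (SE 0.42), and the first was -0.75 without replicate 2. Both comparisons of HCC with liver were made with separate controls, but each shares arrays with the deletion comparisons, so their values are given side by side only.

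The difference between the deletion effects in HCC and in liver was tested directly. No gene had an unadjusted p under 0.05, where 2.43% of all genes did so downwards and 0.845% upwards, and 23 of 34 genes were below 0, where 56.4% of all genes were. The median was -0.15, against -0.06 over all genes. Without survivin-deleted HCC replicate 2 the median was 0.14, with 8 of 34 genes below 0. The exchange left the median at -0.15 and 23 genes below 0, and 1 gene, Hpd, then had an unadjusted p under 0.05, against 3.55% of all genes. Hpd had a difference of 0.80 (SE 0.41, limma adjusted p = 0.913).

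Several genes had more than 1 probe, and these did not always agree. There were 44 probes for the 34 genes, and 8 genes had several. Both Kynu probes were lowest on survivin-deleted HCC replicate 2, at -1.17 and -1.59, and so were both Cth probes, at 2.66 and 2.26. The second Kmo probe read 1.06 there but 1.03 on survivin-deleted liver replicate 1, and the second Ass1 probe read 4.11 there but 3.83 on survivin-deleted HCC replicate 1. The second Otc probe was at 2.14 on the low array and 3.37 to 3.94 on the other arrays of slide 2, but at 1.29 and 1.40 on survivin-deleted liver replicate 1 and wild-type HCC replicate 1. The low array was therefore not the lowest on that probe, and its plain difference for deletion in HCC was -0.08, against -1.04 for the main probe. Of 4 Bhmt probes, for the enzyme that remethylates homocysteine with betaine, the one of highest mean gave -0.35 for deletion in HCC and another, as a plain difference of group means, 0.31.

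Promoter sequence was available for 25 of the 34 genes. It was not found for Arg1, Asl, Cps1, Cth, Gls2, Gpt, Kynu, Mat1a and Sds. The 250 bases before the start site, from RefSeq on GRCm38.p6, were searched on both strands for 7 short motifs. Shown are Tdo2 and Hal, low on survivin-deleted HCC replicate 2, Hgd, low in wild-type HCC, and G6pc, low in survivin-deleted HCC. They lie at chr3:81975729-81975978 (minus strand), chr10:93488518-93488767, chr16:37579903-37580152 and chr11:101367466-101367715 (plus strand), and capitals mark the motif matches.
Tdo2: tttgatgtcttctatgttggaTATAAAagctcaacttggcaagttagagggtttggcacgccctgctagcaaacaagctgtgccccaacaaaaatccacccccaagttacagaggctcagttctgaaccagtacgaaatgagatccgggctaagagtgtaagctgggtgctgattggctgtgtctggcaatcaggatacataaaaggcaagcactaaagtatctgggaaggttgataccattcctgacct
Hal: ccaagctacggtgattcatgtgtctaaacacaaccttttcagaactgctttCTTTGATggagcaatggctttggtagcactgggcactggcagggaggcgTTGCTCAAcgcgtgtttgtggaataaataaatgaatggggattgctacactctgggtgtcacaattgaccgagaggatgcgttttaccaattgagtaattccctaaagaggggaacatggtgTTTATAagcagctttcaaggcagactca
Hgd: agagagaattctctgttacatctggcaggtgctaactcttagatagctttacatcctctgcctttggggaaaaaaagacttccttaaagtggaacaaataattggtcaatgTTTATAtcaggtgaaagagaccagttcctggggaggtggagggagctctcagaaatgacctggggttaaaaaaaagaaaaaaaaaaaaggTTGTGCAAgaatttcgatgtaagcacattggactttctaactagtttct
G6pc: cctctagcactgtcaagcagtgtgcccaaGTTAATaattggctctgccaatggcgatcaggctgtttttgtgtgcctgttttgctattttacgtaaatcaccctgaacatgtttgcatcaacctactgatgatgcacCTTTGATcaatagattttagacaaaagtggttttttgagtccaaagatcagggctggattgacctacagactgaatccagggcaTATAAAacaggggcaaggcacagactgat

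The TATA box motif TATAAA was in the window of 4 genes (G6pc, Hal, Hgd and Tdo2), wherever it lay, and in 12.4% of the 32851 promoters searched. In G6pc and Tdo2 it read TATAAA as printed and began 29 and 229 bases before the start site. In Hal and Hgd the match was on the other strand, printed as TTTATA from 28 and 139 bases before the start site. The TCF/LEF core CTTTGAT, the letters that partners of beta-catenin are known to bind, was in the window of 4 genes (G6pc, Haao, Hal and Nags) and in 3.21% of all promoters. The C/EBP core TTGCNNAA was in 3 (Aass, Hal and Hgd) and in 9.56%, and the HNF1 motif GTTAAT in 3 (G6pc, Haao and Pck1) and in 6.43%. The cAMP response element motif TGACG was in 2 (Aass and Pck1) and in 17.8%, the glucocorticoid receptor motif TGTTCT in 2 (Agxt and Haao) and in 16.1%, and the HNF4 core CAAAGTCC in 0 and in 1.2%. Hal, low on the array in question, and Nags, not low there, both hold the TCF/LEF letters, and a match is a description of the sequence only.

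Neighbouring pathways were read from lists chosen by function, and none of their genes passed the adjusted test. Their values are from the main fit only, with no array exchanged or left out. Of 6 genes of amino acid synthesis, 6 were higher in wild-type HCC than in wild-type liver, where 44.6% of all genes were lower. Their median was 0.72, against 0.04 over all genes, and 2 had an unadjusted p under 0.05, against 3.66% of all genes upwards. Among them were Aldh18a1, which makes the precursor of proline, at 1.22 (SE 0.30, unadjusted p = 0.00238 by limma), and Psph, the last step of serine synthesis, at 0.91 (SE 0.31). Of 51 further genes of amino acid breakdown, 43 were lower in that comparison, with a median of -0.29, where 44.6% of all genes were lower. Of these 51, 3 were lower with an unadjusted p under 0.05, against 2.43% of all genes, and 0 were higher, against 3.66%. The 3 were Agxt2l1, which breaks down phosphoethanolamine, at -2.51 (SE 0.61), the sulfite oxidase gene Suox at -1.14 (SE 0.49) and Ddc at -1.36 (SE 0.41).

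Of 16 further genes of gluconeogenesis and glycolysis, 15 were lower in wild-type HCC, where 44.6% of all genes were. Slc25a10, a mitochondrial dicarboxylate carrier, was at -0.74 (SE 0.22). The 1 gene that was higher was Pck2, the mitochondrial counterpart of Pck1, at 0.88 (SE 0.32). Of these 16, 2 were lower and 1 higher with an unadjusted p under 0.05, against 2.43% and 3.66% of all genes. Of 23 one-carbon genes, 17 were lower, with 3 lower and 1 higher at an unadjusted p under 0.05. The higher one was Mthfd2, a mitochondrial folate enzyme, at 1.54 (SE 0.48). Among 40 regulators 23 were lower and 17 higher, with 2 in each direction at an unadjusted p under 0.05. The hormone gene Fgf21 was higher by 2.64 (SE 0.98), and the nuclear receptor gene Esrrg was at -3.09 (SE 0.98). For survivin deletion in HCC, 35 of the 51 breakdown genes were lower, with a median of -0.23, where 52.6% of all genes were lower. There 3 had an unadjusted p under 0.05 downwards (4.44% of all genes did), among them the histamine enzyme Hnmt at -0.91 (SE 0.32), and 3 upwards (3.44%), among them Ddc, which makes dopamine and serotonin, at 1.57 (SE 0.41). Of 17 further urea and nitrogen genes 11 were lower there, with a median of -0.04 and 1 gene in each direction at an unadjusted p under 0.05. These were amino acid carriers, Slc38a2 at -0.58 (SE 0.18) and Slc7a1 at 0.81 (SE 0.36). Slc38a2 was at -0.59 (SE 0.18) for deletion in liver.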

How the data were processed

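Each of 12 samples was run on a single-colour Agilent array. The authors' scanner files give processed intensity per spot, and the submitters' processing notes name Agilent Feature Extraction 10.7. Spatial and multiplicative trends were removed, surrogates were set for dim spots and background correction was off, per the file headers. The authors also deposited a table of log2 values shifted to a 75th percentile near 0 on each array (columns between 0.003 and 0.005), and it was used as an alternative only. No column of the files was left unmapped (0). Each array had 62976 spots, 59305 of them not controls, with 0 saturated. The number of arrays limits the precision.

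From these, log2 signals were averaged per probe over unflagged spots, and the 75th percentile over 55681 probes was subtracted. Probes well above background on all arrays of a group were kept (39134), and each of 26505 genes was represented by its brightest probe on average. limma 3.58.1 in R 4.3.3 fitted 4 group means with slide as a block to all 12 arrays (residual degrees of freedom: 7), with Benjamini-Hochberg adjustment at 0.05. The script was tested on simulated data for deletion in HCC (26194 genes run). There 24% of changes of 1 log2 unit and 80% of changes of 2 were recovered, with 6 false calls. The simulated noise was drawn independently for each gene and array, which real arrays need not follow, so these shares may not hold for them. In the real fit Axin2, of the pericentral list, was at 4.07 (SE 0.80) for deletion in HCC with limma adjusted p = 0.54. A gene that did not pass can therefore still differ by 1 log2 unit or by more. Same-numbered arrays deviated together in 18 of 18 pairs (r = 0.279 to 0.738), and same-numbered arrays also share a slide. Arrays of another number on the same slide gave r = 0.178 to 0.539. Python 3.11.15 and matplotlib 3.10.9 drew the figures.

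The 34 genes, the lists and the tests were chosen with earlier results of these data known. Any of the 34 may be named, and up to 4 genes of smallest p per list, comparison and direction, beside Birc5 and Glul. Cyp2f2, Cd3d, the hepatocyte gene examples and the genes named for their gap on 1 array were chosen after their values were seen. Alternatives were other background corrections, normalizations, filters, probe choices, blocks and variance models, the value table, the exchange or omission of the 2 arrays in doubt, slide 2 only, and leaving out each array.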

Additional observations from a re-analysis of the deposited data

How the results depend on the processing

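No gene of the 34 passed adjustment under any of 26 alternatives in any of the 5 comparisons (0 in each, also with each array left out). Leaving out 1 array at a time moved the median of the 34 log2 changes between -0.57 and -0.09 for deletion in HCC, between -0.32 and -0.03 for deletion in liver, between -0.29 and -0.15 for HCC against liver in the wild type, between -0.66 and -0.11 for the same in survivin-deleted mice, and between -0.43 and 0.14 for the difference between the deletion effects. With the replicate number as a block in place of slide, the medians were the same and 3, 1, 4, 3 and 0 genes had an unadjusted p under 0.05, in that order, against 7.47%, 10.6%, 5.49%, 4.4% and 3.03% of all genes. The following alternatives were chosen after seeing the data. Without survivin-deleted HCC replicate 2, the median for deletion in HCC was 0.055 with the arrays in doubt exchanged and 0.22 on slide 2 alone. On slide 2 alone without that array, the median for HCC against liver in survivin-deleted mice was 0.009 and that for the difference between the deletion effects 0.27. There Sds was at 0.30, Gls2 at 0.023, Gldc at 0.14, Arg1 at 0.17 and Cps1 at 0.37 for deletion in HCC. For deletion in liver, Hpd was at 0.011 and G6pc at 0.006 on slide 2 alone, with or without that array, and Gnmt at 0.015 after quantile normalization. The cause of these turns was not tested. For 31 results picked by name, each 1 gene in 1 comparison, the 26 alternatives gave 806 values. Of these, 796 kept their direction and 10 turned, and none crossed the threshold, which none of the 34 genes passed in any fit. These 31 do not stand for all 34 genes. Without survivin-deleted HCC replicate 2, the genes below 0 for the difference between the deletion effects went from 23 to 8. Dim signal limited little, since all 34 genes were above background on all arrays.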
